A study of Rattus norvegicus with 24 samples.

Results

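The megalin-cubilin endocytosis machinery was examined as 8 genes, Lrp2, Cubn, Amn, Dab2, Lrpap1, Fcgrt, Clcn5 and Ocrl, in the left kidneys of 24 male PKD/Mhm (Cy/+) rats. The genes were listed by name for their roles in this uptake route, with earlier results of these data known, and were found under the Entrez identifiers 29216, 80848, 314459, 79128, 116565, 29558, 25749 and 317576 among the 17334 gene identifiers of the files. PKD/Mhm (Cy/+) rats are heterozygous for a missense change in Anks6 and have cystic kidneys. The study describes all animals, controls included, as Cy/+. It told such rats from non-cystic ones by palpation of the abdomen and describes no genotyping. All animals were 8 months old. There were 6 animals in each of 4 groups. The Ctrl group was untreated. The CoCM group received the supernatant of human skin-derived ABCB5+ cells grown together with macrophages made from the human THP-1 line and stimulated with IFN-γ and LPS, and the study's text gives both an i.p. and an i.v. route for it. The other groups received the human ABCB5+ stromal cells themselves, into the peritoneum (i.p. ABCB5+) or into a vein (i.v. ABCB5+). Treatment was monthly over 6 months. RNA came from whole kidney tissue, so the values mix all cell types of the organ.

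Cells of the proximal tubule take filtered proteins back from the primary urine. Megalin, the product of Lrp2, is a very large receptor of the LDL receptor family, and cubilin, the product of Cubn, is a receptor without a membrane span of its own that is carried to the surface by amnionless, the product of Amn. Dab2 is the adaptor that couples the megalin tail to clathrin, Lrpap1 (RAP) is the chaperone that keeps megalin free of ligand in the endoplasmic reticulum, Fcgrt is the neonatal Fc receptor that rescues albumin and IgG from degradation, Clcn5 is the endosomal chloride-proton exchanger lost in Dent disease, and Ocrl is the inositol phosphatase lost in Lowe syndrome.

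The sequences before the start sites of Lrp2, Cubn, Amn and Lrpap1 are shown because these 4 genes shared their high and low animals, as described further on. They are the 250 bases upstream of the annotated start in RefSeq for the rat assembly GRCr8, on the gene's own strand from 5′ to 3′, and CpG dinucleotides are in capitals. The submitters' processing notes name rn6, so these positions are not those of the files. Lrp2 lies at chr3:74754536-74754785 on the minus strand, Cubn at chr17:81501695-81501944 on the minus strand, Amn at chr6:136132317-136132566 on the plus strand and Lrpap1 at chr14:79875752-79876001 on the plus strand.
Lrp2: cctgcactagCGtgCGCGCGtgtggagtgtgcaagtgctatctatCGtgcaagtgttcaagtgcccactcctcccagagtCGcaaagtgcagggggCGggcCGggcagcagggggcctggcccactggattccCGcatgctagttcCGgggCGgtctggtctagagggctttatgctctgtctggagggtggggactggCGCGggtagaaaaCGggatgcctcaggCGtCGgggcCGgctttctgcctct
Cubn: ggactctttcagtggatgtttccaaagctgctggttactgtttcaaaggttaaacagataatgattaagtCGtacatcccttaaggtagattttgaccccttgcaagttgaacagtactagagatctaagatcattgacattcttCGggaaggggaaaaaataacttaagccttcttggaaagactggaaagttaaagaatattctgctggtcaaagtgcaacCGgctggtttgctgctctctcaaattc
Amn: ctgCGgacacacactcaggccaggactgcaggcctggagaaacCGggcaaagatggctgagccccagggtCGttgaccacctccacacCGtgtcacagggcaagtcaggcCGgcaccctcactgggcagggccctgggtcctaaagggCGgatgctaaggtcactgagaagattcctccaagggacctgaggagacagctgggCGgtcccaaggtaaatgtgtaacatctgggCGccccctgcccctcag
Lrpap1: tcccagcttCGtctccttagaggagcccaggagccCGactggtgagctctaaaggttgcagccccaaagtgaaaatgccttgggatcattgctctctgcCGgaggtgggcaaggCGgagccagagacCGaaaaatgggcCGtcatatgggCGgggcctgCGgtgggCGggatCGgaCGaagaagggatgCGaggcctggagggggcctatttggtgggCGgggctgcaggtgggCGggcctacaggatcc
The Lrp2 window had a GC content of 64.4% and 17 CpG, Lrpap1 63.6% and 14 CpG, Amn 62.8% and 8 CpG, and Cubn 40% and 3 CpG. The median over 33469 rat promoter windows of this length was 51.2% and 5 CpG. The Cubn window was thus the only one of the 4 below the median in both measures. An entry was found for 7 of the 8 genes. The windows of these 7 genes were searched on both strands for an HNF4 core (CAAAGTCCA, found in 0.338% of all windows), an E-box (CACGTG, 5.59%), the longer CLEAR core that contains the E-box (TCACGTGA, 0.657%) and a TATA box (TATAAA, 12.9%). None of these strings was found in these windows.

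Library totals were between 9304630 and 14125457 estimated counts, so that 3 counts, the limit that a count of 0 allows, corresponded to at most 0.322 CPM (counts relative to the library total). All 8 genes passed the filter on low counts and were counted in every animal. Lrp2 had between 6006 and 26550 counts per animal, and Clcn5, the weakest, between 19 and 173. The numbers of the Ctrl animals lay between 1 and 24 and those of the treated animals between 26 and 43, so the order of the animals and treatment cannot be told apart in any comparison with Ctrl. In all, 4 libraries stood apart from the others, those of CoCM animal 39, i.p. ABCB5+ animal 38 and the i.v. ABCB5+ animals 36 and 37. Their scores on the first principal component of all genes were between 80.8 and 97.4, against −53.0 to 11.53 in the other 20 animals. In these 4 animals the summed level of 8 tubular injury markers was 857 to 1253 CPM, against 7858 to 15383 CPM in the other 20. Their summed levels of 8 macrophage markers (71.8 to 207 CPM) and of 6 fibroblast markers (349 to 639 CPM) were the lowest of the 24 animals. The other 20 animals had at least 342 CPM for the macrophage markers and at least 818 CPM for the fibroblast markers. Group differences that rest on these animals are given with and without them.

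Levels between genes were compared in TPM, which are scaled to transcript length. Lrpap1 and Dab2 led with means over all 24 animals of 243 and 206 TPM, followed by Fcgrt with 153 TPM. Lrpap1 was above Dab2 in 14 of 24 animals, so this pair was not ordered beyond the spread between animals, while Dab2 was above Fcgrt in 20. Lrp2 came next with 84.4 TPM and was below Fcgrt in 22 animals. Amn had 67.9 TPM and was below Lrp2 in 19 animals. Cubn, with 28.2 TPM, was below its partner Amn in 24 of 24 animals. Ocrl (5.14 TPM) and Clcn5 (3.64 TPM) were the weakest, and Ocrl was above Clcn5 in 19 animals. In Ctrl, the mean TPM of Dab2 and Lrpap1 exceeded that of 94.9% and 94.8% of the 12778 genes tested, that of Lrp2 83.1%, that of Cubn 59.7% and that of Clcn5 17.3%.

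The 8 genes differed widely in how much they varied between animals of one group. The SD of log2 CPM within groups was 0.96 for Clcn5, 0.70 for Lrp2, 0.67 for Amn, 0.52 for Lrpap1 and 0.50 for Cubn, against a median of 0.30 over all tested genes. Dab2 (0.26), Ocrl (0.19) and Fcgrt (0.16) were steadier than that median. Lrp2 was more variable than 85.1% of tested genes, and Fcgrt more variable than only 19.5%. Without the 4 animals that stood apart the SD was 0.60 for Lrp2, 0.49 for Amn and 0.38 for Lrpap1, against a median of 0.23. The receptors therefore varied more than most genes also among the other 20 kidneys. The SD of Clcn5 includes counting error, as its counts were low.

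**Figure D1:**
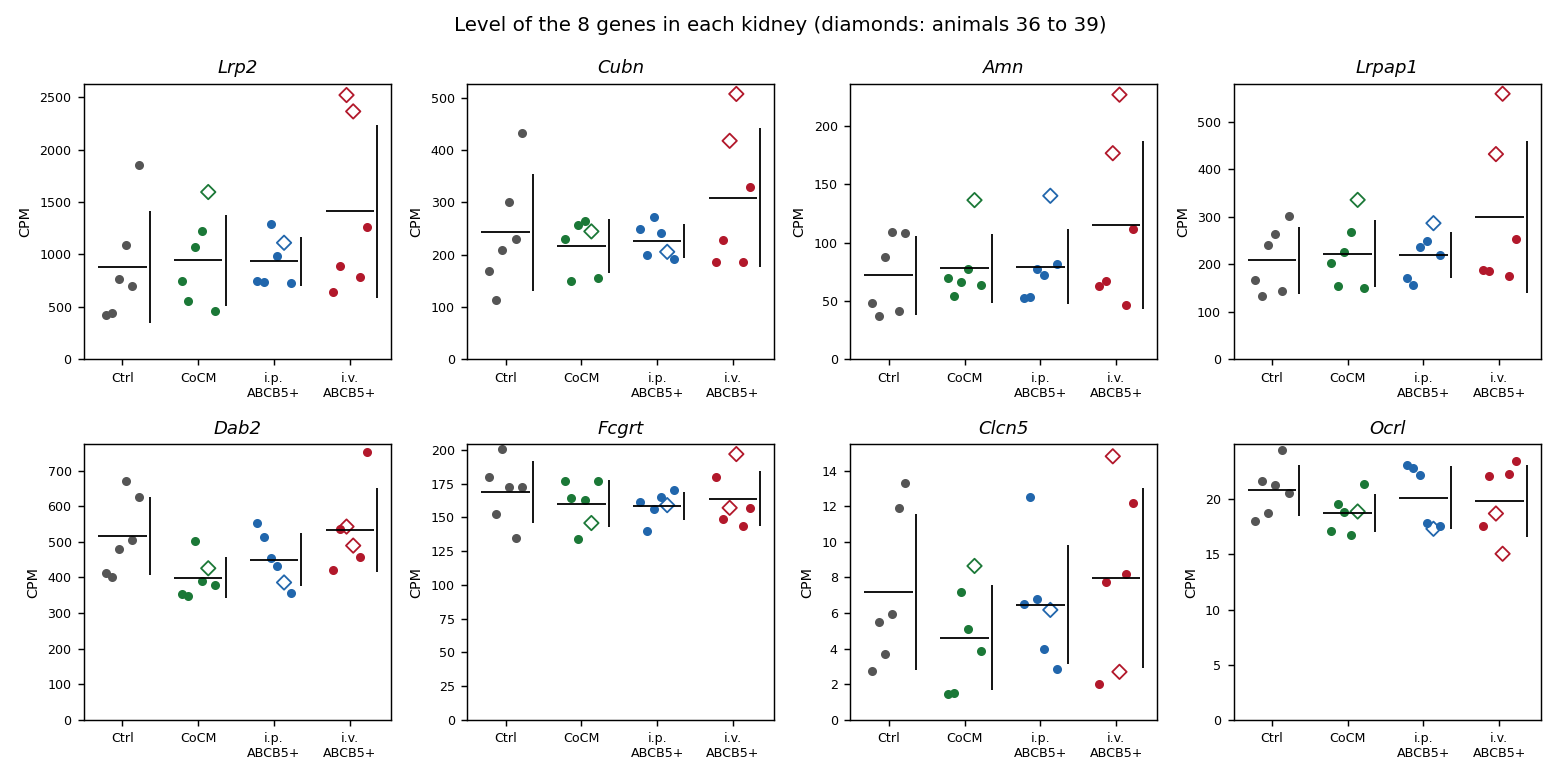
Level of the 8 genes in CPM (linear axis from 0) in each kidney by group, with the group mean as a horizontal line and ± SD as a vertical line (n = 6 per group). Diamonds mark animals 36 to 39, of which i.v. ABCB5+ animals 36 and 37 have the highest Lrp2, Lrpap1 and Amn of all 24 kidneys, while Fcgrt keeps within 134 to 201 CPM throughout.

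The main question of the study, whether conditioned medium or ABCB5+ cells given by either route changed gene expression in the cystic kidney, was asked of each of the 8 genes. None of them passed the threshold in any comparison of a treatment with Ctrl, between the routes, or over the 4 groups together (edgeR quasi-likelihood F-test, Benjamini-Hochberg adjusted over 12778 genes). The share of all genes called was 0.00783% for CoCM against Ctrl and 0% for the other comparisons. At an unadjusted p below 0.05, 1 of the 8 genes was lower in CoCM (Dab2) and none was higher, where 5.96% of all genes were lower and 5.96% higher, or 11.9% in all. In the other comparisons 0 of 8 genes reached that level, against 1.77% of all genes for i.p. ABCB5+, 5.78% for i.v. ABCB5+ (4.44% higher, 1.34% lower) and 2.14% between the routes. DESeq2 also called 0 of the 8 genes in each comparison. The median log2 fold change of the 8 genes was −0.11 for CoCM, −0.07 for i.p. ABCB5+ and 0.25 for i.v. ABCB5+ against Ctrl, and without the 4 animals −0.15, −0.08 and 0.01. The median over all tested genes was between 0.00 and 0.01 in these comparisons. The comparisons with Ctrl share the same 6 control animals.

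The receptor Lrp2 ranged from 420 to 1850 CPM in Ctrl with a median of 733 CPM. It ranged from 463 to 1595 CPM (median 909) in CoCM, from 722 to 1289 CPM (median 867) in i.p. ABCB5+ and from 643 to 2521 CPM (median 1073) in i.v. ABCB5+. All groups overlapped, and 2 i.v. ABCB5+ animals, 36 with 2521 CPM and 37 with 2365 CPM, were above the highest control. Their 4 group mates had 643, 886, 782 and 1260 CPM, within the control range. The log2 fold change of i.v. ABCB5+ against Ctrl was 0.68 ± 0.39 (SE, adjusted p = 0.673, exact permutation p = 0.182, unadjusted), and without the 4 animals it was 0.02 ± 0.36. CoCM (0.10 ± 0.39) and i.p. ABCB5+ (0.09 ± 0.39) lay within their errors. With the mean level of 16 proximal tubule markers in the fit as a covariate, the i.v. difference was −0.04 ± 0.17. The wide spread was not confined to treated animals, since Ctrl animals 1 and 12 had the lowest Lrp2 of all 24 (420 and 441 CPM) and Ctrl animal 24 the third highest (1850 CPM). In bulk tissue a smaller number of proximal tubule cells and less RNA per cell cannot be told apart.

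Cubn, the receptor that works together with megalin, ran from 113 to 434 CPM in Ctrl (median 220) and from 149 to 264 CPM in CoCM (median 237). In i.p. ABCB5+ it ran from 192 to 272 CPM (median 223), the narrowest of the 4 groups, and in i.v. ABCB5+ from 185 to 508 CPM (median 279). Only i.v. ABCB5+ animal 37, with 508 CPM, was above the control range. The log2 fold changes against Ctrl were −0.16 ± 0.28 for CoCM, −0.10 ± 0.28 for i.p. ABCB5+ and 0.35 ± 0.28 for i.v. ABCB5+ (adjusted p = 0.691), and the last was −0.07 ± 0.28 without the 4 animals. Leaving out Ctrl animal 24 alone, which had the highest control value (434 CPM), turned the CoCM and i.p. differences to 0.06 and 0.14.

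Amn, which carries cubilin to the cell surface, had 37.2 to 109 CPM in Ctrl (median 67.8). It had 53.8 to 136 CPM (median 67.7) in CoCM, 52.0 to 140 CPM (median 74.6) in i.p. ABCB5+ and 46.4 to 227 CPM (median 89.2) in i.v. ABCB5+. The 4 highest values of all animals were those of i.v. animals 37 (227 CPM) and 36 (177 CPM), i.p. animal 38 (140 CPM) and CoCM animal 39 (136 CPM). Amn was the gene of the 8 in which the 4 animals that stood apart filled the 4 highest ranks. The log2 fold change of i.v. ABCB5+ against Ctrl was 0.68 ± 0.37 (adjusted p = 0.673) and 0.00 ± 0.29 without the 4 animals. For CoCM it went from 0.11 ± 0.37 to −0.13 ± 0.27, and for i.p. ABCB5+ from 0.14 ± 0.37 to −0.10 ± 0.27.

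Lrpap1, the chaperone of megalin, had 133 to 302 CPM in Ctrl (median 203), 150 to 335 CPM in CoCM (median 213), 156 to 286 CPM in i.p. ABCB5+ (median 227) and 175 to 559 CPM in i.v. ABCB5+ (median 220). Animals 37 (559 CPM), 36 (432 CPM) and 39 (335 CPM) were above every control, and the remaining animals overlapped with Ctrl. Its log2 fold change in i.v. ABCB5+ was 0.52 ± 0.29 (adjusted p = 0.673) with all animals and −0.06 ± 0.22 without the 4. Lrp2, Amn and Lrpap1 thus had the 3 largest differences from Ctrl in i.v. ABCB5+ among the 8 genes, and all 3 were within 0.06 of 0 in the other animals.

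**Figure D2:**
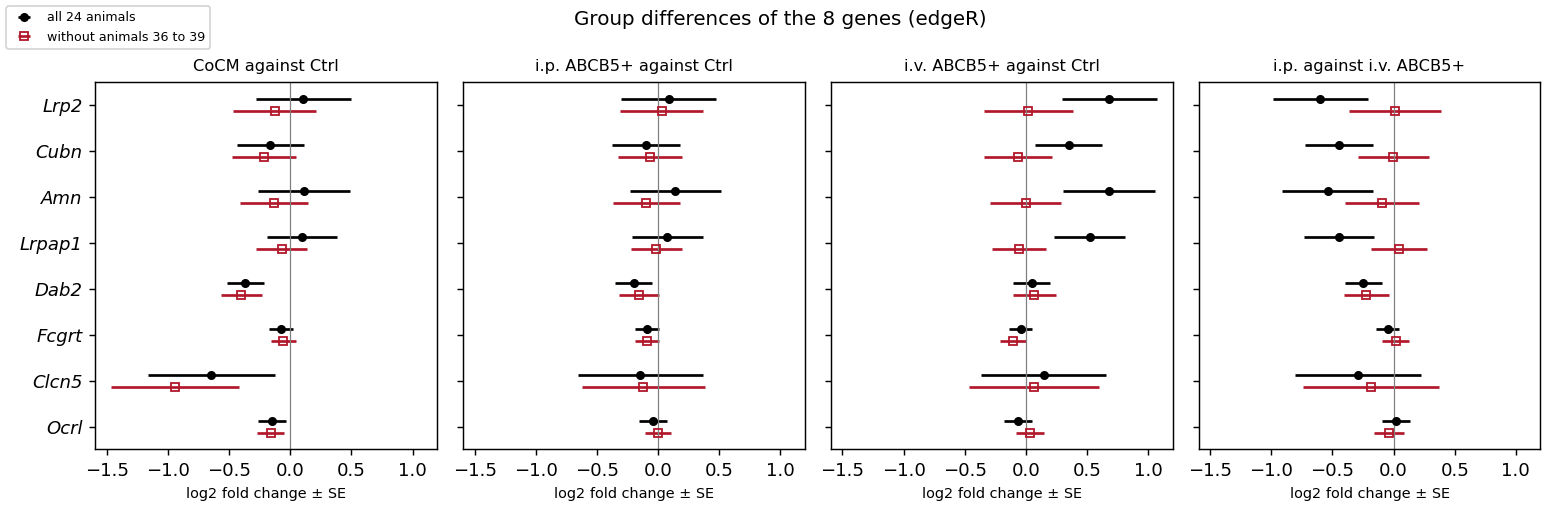
Log2 fold change ± SE (edgeR) of each gene in the 4 comparisons, with all 24 animals (filled circles) and without animals 36 to 39 (open squares), where the vertical line marks no difference. The i.v. ABCB5+ differences of Lrp2, Amn and Lrpap1 (0.68, 0.68 and 0.52) move to 0.02, 0.00 and −0.06, and the Dab2 difference in CoCM goes from −0.37 to −0.40.

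Dab2, the clathrin adaptor, was the gene that stood farthest from Ctrl relative to its error. The control animals had 413, 402, 481, 670, 505 and 626 CPM. The CoCM animals had 355, 348, 501, 390, 426 and 378 CPM, and 4 of these 6 values were below the lowest control and 6 of 6 below the control mean. The means were 400 ± 57.1 CPM in CoCM and 516 ± 110 CPM in Ctrl (SD, n = 6 each). The log2 fold change was −0.37 ± 0.15, with an adjusted p of 0.380 by edgeR and an unadjusted p of 0.0238. The difference therefore did not pass the threshold over all genes. The exact permutation test gave a two-sided p of 0.0411, unadjusted, where the smallest p that 6 against 6 animals can give is 0.00216. The difference was as large without the 4 animals that stood apart. The log2 fold change was −0.40 ± 0.17 without them, −0.39 ± 0.14 with the proximal tubule markers as a covariate, and between −0.44 and −0.30 when any single animal was left out. The summed level of 6 endothelial markers was 326 to 584 CPM in CoCM against 485 to 588 CPM in Ctrl, so the groups overlapped. Of the 6 markers, 3 were lower and 0 higher in CoCM at an unadjusted p below 0.05, where 5.96% of all genes were lower. These were Tek (−0.44 ± 0.14), Cdh5 (−0.66 ± 0.25) and Kdr (−0.44 ± 0.18), named after their values were seen. In the other 20 animals these 3 differences were −0.42 ± 0.15, −0.58 ± 0.21 and −0.45 ± 0.18. In that fit 3 of the 6 markers were lower and 1 was higher at that level, beside 9.69% and 7.22% of all genes, so the list did not move together. The part of the endothelial markers in the Dab2 value was not tested.

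In the other groups Dab2 had 356 to 553 CPM (i.p. ABCB5+, median 444) and 420 to 753 CPM (i.v. ABCB5+, median 513). The differences from Ctrl were −0.20 ± 0.15 and 0.05 ± 0.15 on the log2 scale. The highest value of all, 753 CPM, was that of i.v. animal 43, and without this animal the i.v. difference was −0.08. Over the 4 groups together Dab2 had an F-test p of 0.0451 (adjusted p = 0.817, edgeR), the only one of the 8 genes below 0.05 before adjustment, where 4.71% of all genes were.

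Fcgrt, the neonatal Fc receptor, was the steadiest of the 8 genes. It ran from 135 to 201 CPM in Ctrl (median 173), from 134 to 177 CPM in CoCM (median 164), from 140 to 170 CPM in i.p. ABCB5+ (median 160) and from 144 to 197 CPM in i.v. ABCB5+ (median 157). The highest value over all animals was 1.499 times the lowest, against 6.00 times for Lrp2 and 6.11 times for Amn. The log2 fold changes against Ctrl were −0.08, −0.09 and −0.04, each with an SE of 0.096.

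Of the endosomal genes, Ocrl ranged from 17.98 to 24.5 CPM in Ctrl (median 21.0), from 16.7 to 21.4 CPM in CoCM (median 18.8), from 17.3 to 23.1 CPM in i.p. ABCB5+ (median 20.03) and from 15.1 to 23.5 CPM in i.v. ABCB5+ (median 20.4). The log2 fold change in CoCM was −0.15 ± 0.11 (adjusted p = 0.558), with 5 of 6 animals below the control mean. The lowest Ocrl of all animals was in i.v. animal 37, whose Lrpap1, Cubn and Amn were the highest. Clcn5 had 2.73 to 13.3 CPM in Ctrl (median 5.74) and 1.43 to 8.65 CPM in CoCM (median 4.47). It had 2.86 to 12.5 CPM in i.p. ABCB5+ (median 6.35) and 2.01 to 14.8 CPM in i.v. ABCB5+ (median 7.99). The lowest values were those of CoCM animals 26 and 27, with 19 and 20 counts. Clcn5 had the largest difference in CoCM (−0.65 ± 0.52, adjusted p = 0.573), and −0.94 ± 0.53 without the 4 animals, but its error was of similar size. The i.v. animals 36 and 37, alike in most of the 8 genes, were far apart in Clcn5, with 14.8 CPM (the highest of 24) and 2.69 CPM (rank 21).

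Between the routes, 7 of the 8 genes had lower means after i.p. than after i.v. injection of ABCB5+ cells, and none passed the test (adjusted p = 0.9999 for each, edgeR). Over all tested genes, 6411 were lower and 6367 higher. Without the 4 animals that stood apart, 5 of the 8 genes were lower and 3 higher. The differences, i.p. minus i.v. on the log2 scale, were −0.60 ± 0.39 for Lrp2, −0.54 ± 0.37 for Amn, −0.45 ± 0.28 for Cubn and −0.45 ± 0.29 for Lrpap1. Without the 4 animals they were 0.01 ± 0.38, −0.10 ± 0.30, 0.00 ± 0.29 and 0.04 ± 0.23. Dab2 was −0.25 ± 0.15 with all animals and −0.22 ± 0.18 without the 4.

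**Figure D3:**
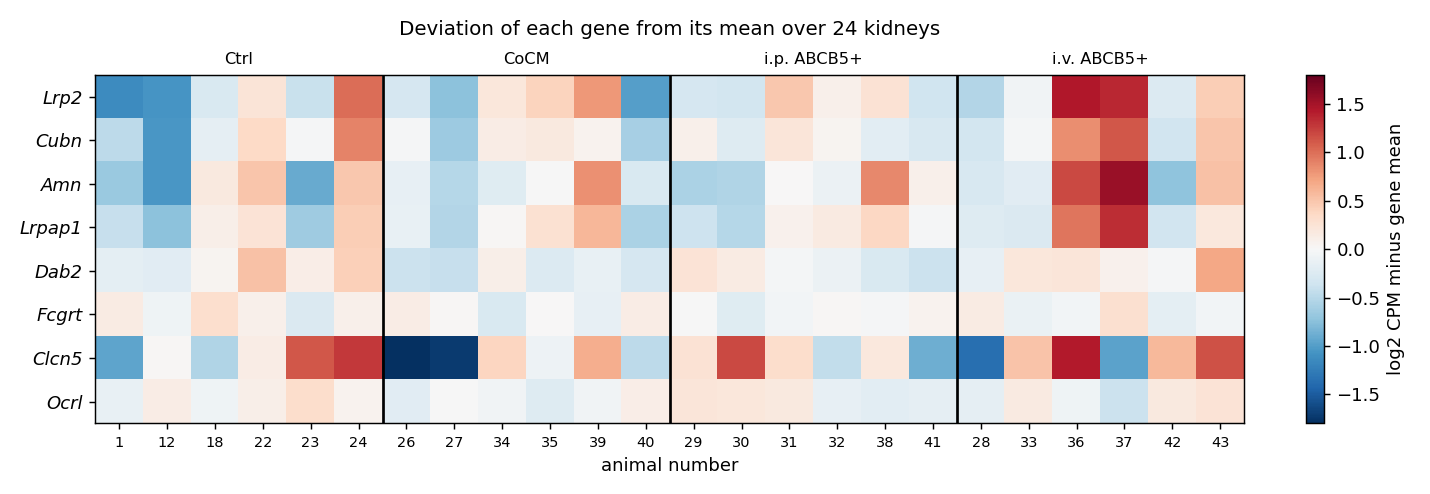
Deviation of each gene (rows) in each animal (columns, by group and animal number) from the gene's own mean over 24 kidneys, in log2 CPM, red above and blue below. Lrp2, Cubn, Amn and Lrpap1 share low values in Ctrl animals 1 and 12 and high values in Ctrl animal 24 and i.v. ABCB5+ animals 36 and 37, whereas Fcgrt and Ocrl stay near 0.

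Across the 24 animals the profiles of the 8 genes were compared by the root mean square (RMS) of the difference between their centred log2 CPM values, in which 0 means identical deviations. The closest pair was Amn and Lrpap1 (0.24), followed by Dab2 and Ocrl (0.25), Cubn and Lrpap1 (0.29), Fcgrt and Ocrl (0.29), Lrp2 and Lrpap1 (0.31) and Lrp2 and Cubn (0.32). Genes that hardly vary are close by this measure whatever they do, which holds for Dab2, Ocrl and Fcgrt. Lrp2, Amn, Cubn and Lrpap1 had deviations of their own of 0.69, 0.65, 0.49 and 0.50 (RMS), so the distances between them were smaller than the deviations. The adaptor Dab2 was no nearer to Lrp2 than 0.61, a distance nearly as large as the deviation of Lrp2 itself. Clcn5 lay at 0.76 or more from each of the other 7 genes. Without the 4 animals the distances were 0.21 between Amn and Lrpap1, 0.23 between Lrp2 and Cubn and 0.44 between Lrp2 and Dab2.

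Ratios of TPM within a kidney compare the genes with each other animal by animal. The pairs were chosen after the values had been seen, and no test was made. The ratio of Lrp2 to Cubn was 1.799 to 3.43 in the 20 other animals, and 4.73 in CoCM animal 39. It was 4.37 and 3.38 in i.v. animals 36 and 37 and 3.92 in i.p. animal 38. The ratio of Amn to Cubn was 1.26 to 3.04 in the 20 animals, 4.88 in animal 38, 3.996 in animal 39, 3.21 in animal 37 and 3.02 in animal 36. In CoCM animal 39 and i.p. animal 38 both ratios were above the range of the 20, and Cubn itself was in the middle of the 24 animals (ranks 10 and 16) while Amn was at ranks 4 and 3. The ratio of Lrp2 to Dab2 was 0.197 to 0.607 in the 20 animals, and 0.932, 0.898, 0.723 and 0.556 in animals 37, 36, 39 and 38. Lrp2 was thus high relative to Dab2 in 3 of the 4 animals and within the range of the others in i.p. animal 38. The ratio of Cubn to Dab2 was not taken, so nothing follows for cubilin.

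**Figure D4:**
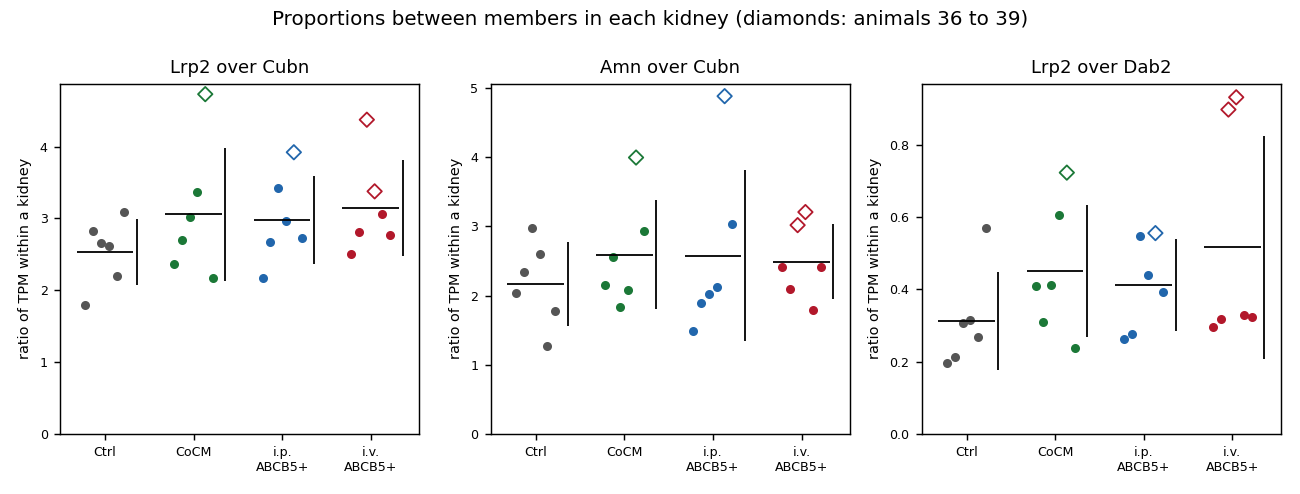
Ratios of TPM within each kidney by group (linear axes from 0), with the group mean as a horizontal line and ± SD as a vertical line (n = 6 per group) and animals 36 to 39 as diamonds. Ratios of Lrp2 to Cubn above 3.43 and of Amn to Cubn above 3.04 are found only among the diamonds.

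As filtered proteins are taken back in the proximal tubule, the levels of the uptake genes are given beside 16 markers of that segment. Among these markers are Slc34a1, Slc5a2, Slc22a6 and Hnf4a. All 16 were measured, and 1 of them, Slc22a7, was at 0 in 2 animals. The summed marker level ran from 2777 to 10957 CPM in Ctrl (median 5312) and from 3857 to 18197 CPM in CoCM (median 6866). It ran from 3725 to 14349 CPM in i.p. ABCB5+ (median 7506) and from 4222 to 28132 CPM in i.v. ABCB5+ (median 8781). The 4 highest sums were those of i.v. animals 37 (28132 CPM) and 36 (23886 CPM), CoCM animal 39 (18197 CPM) and i.p. animal 38 (14349 CPM), and the highest of the other 20 was 11375 CPM. None of the 16 markers was called in any comparison. At an unadjusted p below 0.05, 3 of 16 were lower in CoCM, beside 5.96% of all genes, the transporters Slc5a12 (−1.07 ± 0.36), Slc4a4 (−0.95 ± 0.40) and Slc5a2 (−0.73 ± 0.32). In i.v. ABCB5+, 3 of 16 were higher at that level, beside 4.44% of all genes, Slc22a7 (2.84 ± 1.11), Slc7a13 (2.79 ± 1.32) and Miox (1.48 ± 0.69). These 6 genes are named after their values were seen. In the fit without the 4 animals, 0 of 16 were higher in i.v. ABCB5+ at that level, and the differences of Slc22a7, Slc7a13 and Miox were 0.42 ± 1.09, 0.01 ± 1.28 and 0.02 ± 0.56. In CoCM, 2 of 16 were then lower, Slc5a12 (−0.97 ± 0.36) and Slc4a4 (−1.15 ± 0.42), and Slc5a2 was at −0.65 ± 0.34. The median log2 fold changes of the 16 markers were 0.21 (CoCM), 0.17 (i.p. ABCB5+) and 0.85 (i.v. ABCB5+), so that in CoCM the median and the genes below 0.05 differed in sign. These medians were −0.19, −0.08 and 0.11 without the 4 animals, and the highest marker sum was then 8804 CPM in CoCM, 8673 CPM in i.p. ABCB5+ and 11375 CPM in i.v. ABCB5+. With the marker mean as a covariate, the i.v. differences of Lrp2, Cubn, Amn and Lrpap1 were −0.04, −0.10, −0.09 and −0.09, and that of Dab2 in CoCM was −0.39. Summed markers of the thick ascending limb (8580 to 11981 CPM) were also high in the 4 animals, at ranks 1, 2, 3 and 5 of 24. For markers of the distal convoluted tubule, the collecting duct and podocytes, animals 38 and 39 had ranks 1 and 2 in each list. Animal 36 had ranks 4, 6 and 3 in these lists, and animal 37 ranks 15, 11 and 12.

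**Figure D5:**
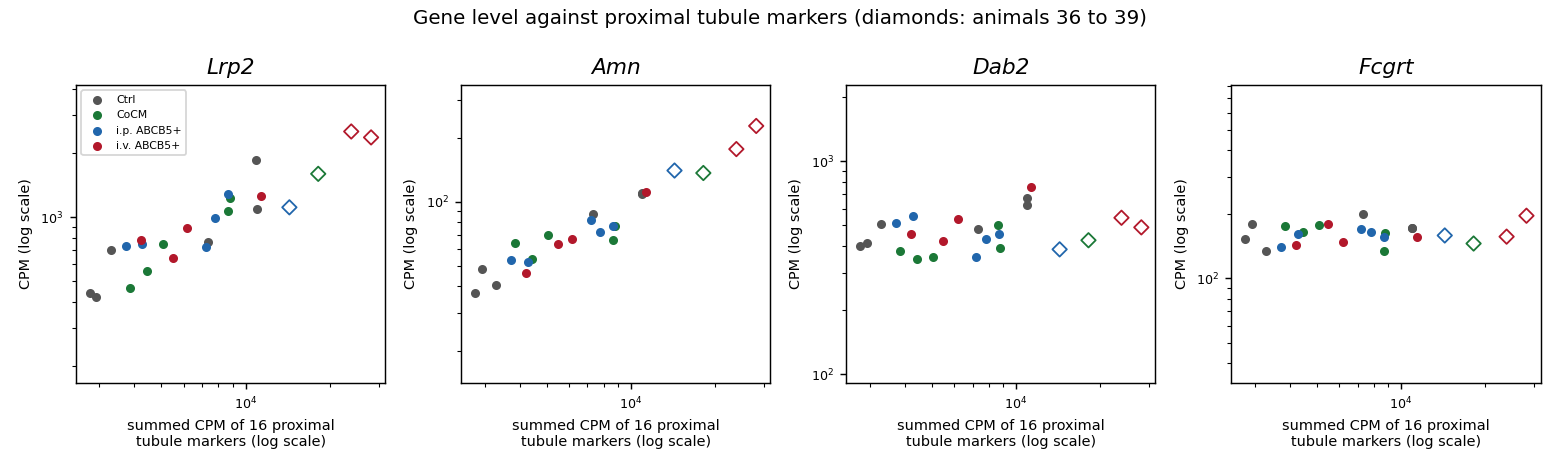
Level of Lrp2, Amn, Dab2 and Fcgrt in CPM against the summed CPM of 16 proximal tubule markers (both axes logarithmic, each panel spanning its own range), 1 point per kidney, coloured by group, with diamonds for animals 36 to 39. The lowest Lrp2 and Amn values lie at the low end of the marker sum (from 2777 CPM) and the highest in i.v. ABCB5+ animals 36 and 37, while Fcgrt stays between 134 and 201 CPM along the whole axis.

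The genes nearest to each member by the same RMS distance were drawn from 11645 genes over the 24 animals, and nothing about shared function or control follows from it. For Lrp2 they were Ddah1 (0.18), Slc35d1 (0.19), Hnf4a (0.20), Myo7a (0.21) and Slc1a1 (0.21), of which Hnf4a is a transcription factor of the proximal tubule and one of the 16 markers. Among the 5 nearest to Cubn were Igsf11 (0.19), Vil1 (0.21), Sfxn1 (0.23) and Cpn1 (0.23), where Vil1 encodes the brush border protein villin. Without the 4 animals, 3 of the 5 nearest genes remained among the nearest 5 for Lrp2, and 3 of 5 for Cubn. Tst (0.14) was among the genes nearest to Amn, and nearest to Lrpap1 were the mitochondrial enzyme Aldh2 (0.10) and Nipsnap1 (0.10). Dab2 was nearest to Picalm (0.10), itself a clathrin assembly protein, and to Ablim3 (0.13). Clcn5 was nearest to Cpeb4 (0.25) and Cmtm4 (0.28), Fcgrt to Mbd2 (0.08) and Nudc (0.09), and Ocrl to Ipo9 (0.09) and Slc23a2 (0.09).

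Other genes of the uptake route were taken as 5 lists, and none of their genes passed the threshold in any comparison. At an unadjusted p below 0.05 in CoCM, 7 of their 74 tested genes (9.46%) were found, 6 lower and 1 higher, beside 11.9% of all genes (5.96% lower and 5.96% higher), so the share was near that of all genes and the genes below are given for their values alone. Of 18 adaptors, clathrin coat proteins and motors, 16 were found and tested, and 2 were lower in CoCM at an unadjusted p below 0.05. These were Picalm, with 219 ± 31.9 CPM in CoCM against 277 ± 51.3 CPM in Ctrl (log2 fold change −0.34 ± 0.14), and the AP-2 subunit Ap2b1, with 235 ± 19.4 against 269 ± 21.0 CPM (−0.20 ± 0.083). Of 14 endosomal Rab GTPases and effectors, 1 was lower in CoCM, the Rab5 effector Rabep1 (−0.19 ± 0.080), and Rab14 was at −0.20 ± 0.13. Of 21 genes for the acidification of endosomes, mostly subunits of the V-type ATPase, 1 was lower, Atp6v0a2 (−0.34 ± 0.15), and Atp6v1f was at 0.28 ± 0.15 in i.p. ABCB5+. Of 10 tested members of the LDL receptor family other than Lrp2, 2 were lower, the Wnt co-receptor Lrp6 (−0.81 ± 0.34) and Lrp4 (−0.37 ± 0.16). Of 13 ligands, carriers and genes of vitamin handling, 1 was higher in CoCM, the transcobalamin receptor Cd320 (0.33 ± 0.14).

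Against Ctrl, 0 genes of these 5 lists reached an unadjusted p below 0.05 after cells given by either route, nor between the routes. The smallest adjusted p of any of the 5 lists was 0.383 in CoCM. The list medians in CoCM were −0.01 for adaptors, 0.00 for Rab GTPases, 0.11 for acidification, 0.01 for ligands and −0.13 for the LDL receptor family, beside 0.01 over all tested genes. They lay between −0.18 and 0.02 when the 4 animals were left out. Of the genes named from the lists, the one farthest from Ctrl in i.v. ABCB5+ was Gc, the vitamin D binding protein that megalin takes up, at 2.28 ± 1.16 (adjusted p = 0.673), with 2.82 to 216 CPM in i.v. ABCB5+ and 0.796 to 53.5 CPM in Ctrl. Its highest values of all animals were those of i.v. animals 37 (216 CPM) and 36 (160.0 CPM), and without the 4 animals the difference was −0.21 ± 1.16. Without them the lists again held 0 genes below 0.05 in i.p. and i.v. ABCB5+ against Ctrl and between the routes, and 10 of 74 in CoCM (9 lower and 1 higher), beside 16.9% of all genes, with Rab14 at −0.32 ± 0.12.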

How the data were processed

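RNA from whole left kidney of 24 rats had been sequenced on a BGISEQ-500. Groups and animal numbers were taken from the sample labels. Per animal, the authors deposited estimated counts, not normalized, and TPM values, scaled by the authors to transcript length and library size (sums of 964191 to 976409), for 17334 Entrez identifiers. The submitters' processing notes name Trim Galore 0.6.4, kallisto 0.4.6 and rn6, and the study's methods name DESeq2 and a package of human gene models. Symbols for 17179 identifiers came from RefSeq (GRCr8).

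Estimated counts were rounded to whole numbers, filtered with filterByExpr (12778 genes left), scaled by TMM and fitted with 4 group means over 24 samples in edgeR 4.0.16 (R 4.3.3). Comparisons used the quasi-likelihood F-test, with Benjamini-Hochberg adjustment over all genes and a threshold of 0.05. The SE was the log2 fold change divided by the square root of F. CPM values use the TMM-scaled totals, and log2 CPM a prior count of 2. Single genes were also compared by two-sided exact permutation of 12 animals. The fit was also tested on simulated counts.

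Alternatives were DESeq2 1.42.0, median-ratio size factors, no filter or at least 10 counts in every sample, only the groups compared, limma 3.58.1 on log2(TPM + 1), limma voom with sample weights, a proximal tubule covariate, and leaving out the 4 animals that stood apart or each animal in turn. Leaving out the 4 animals was extended to the marker and pathway lists after seeing the data. The 8 genes, the marker and pathway lists (145 of 149 written genes found) and the alternatives were chosen with earlier results of these data known. All 8 genes were named in each comparison, of each pathway list the 2 genes with the smallest p against Ctrl, and of the profiles the nearest 5 (Lrp2, Cubn) or 2 genes among those with a mean log2 CPM above 1. Some of the nearest genes are not reported here. Libraries held 9304630 to 14125457 counts. The limit of 3 counts covers counting error only, as reads carry no molecular identifiers. No library repeated another, with a chi-square per degree of freedom of at least 10.6 within groups.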

Additional observations from a re-analysis of the deposited data

Results flagged for a closer look

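A value was singled out where the highest or lowest of the 6 animals of a group was set off from its nearest neighbour by more of the group's whole range than Dixon's critical value for 6 samples allows. Of 32 combinations of gene and group, 3 met this, and about 1 in 20 would by chance. Amn was 136.4 CPM in CoCM animal 39, where the other 5 animals had 53.8 to 77.0 CPM, a gap of 0.719 of the range. Amn was 140.1 CPM in i.p. ABCB5+ animal 38, where the others had 52.0 to 81.8 CPM, a gap of 0.662. Dab2 was 753.5 CPM in i.v. ABCB5+ animal 43, where the others had 420 to 543 CPM, a gap of 0.632. Animals 39 and 38 belong to the 4 that stood apart over all genes, and animal 43 does not.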

How the results depend on the processing

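The call of each gene kept its side of the threshold in every comparison, as 0 of the 8 genes were called by each of the 9 other settings and in each of the 24 fits that left out 1 animal. Directions were less stable. Outside the single-animal fits, 244 of 288 log2 fold changes kept their sign and 44 changed it, and DESeq2, median-ratio size factors, both filters on low counts and fits of only the groups compared changed none. Without the 4 animals that stood apart, the sign changed in CoCM against Ctrl Lrp2 (−0.13), Amn (−0.13) and Lrpap1 (−0.070), in i.p. ABCB5+ against Ctrl Amn (−0.096), Ocrl (4.19e-05) and Lrpap1 (−0.013), in i.v. ABCB5+ against Ctrl Cubn (−0.067), Ocrl (0.034) and Lrpap1 (−0.057) and in i.p. against i.v. ABCB5+ Lrp2 (0.0087), Fcgrt (0.017), Ocrl (−0.034) and Lrpap1 (0.044), and among the genes of the lists, a comparison added after seeing the data, in i.v. ABCB5+ against Ctrl Gc (−0.21) and Atp6v1f (−0.0051). With the proximal tubule marker mean as a covariate, the sign changed in CoCM against Ctrl Lrp2 (−0.042) and Lrpap1 (−0.041), in i.p. ABCB5+ against Ctrl Lrp2 (−0.060), Amn (−0.092) and Lrpap1 (−0.12), in i.v. ABCB5+ against Ctrl Lrp2 (−0.037), Cubn (−0.10), Amn (−0.088), Dab2 (−0.051), Clcn5 (−0.098), Ocrl (0.015) and Lrpap1 (−0.090) and in i.p. against i.v. ABCB5+ Ocrl (−0.027). With limma voom and quality weights per sample, the sign changed in CoCM against Ctrl Amn (−0.11) and Lrpap1 (−0.0088), in i.p. ABCB5+ against Ctrl Cubn (0.078), Amn (−0.021), Clcn5 (0.031) and Ocrl (0.0026), in i.v. ABCB5+ against Ctrl Amn (−0.092), Dab2 (−0.021), Ocrl (0.056) and Lrpap1 (−0.062) and in i.p. against i.v. ABCB5+ Lrp2 (0.15), Cubn (0.073), Amn (0.071), Fcgrt (0.049), Ocrl (−0.053) and Lrpap1 (0.14). With limma on log2(TPM + 1), the sign changed in CoCM against Ctrl Lrpap1 (−0.0013) and in i.v. ABCB5+ against Ctrl Dab2 (−0.036). With 1 animal left out, 348 of 384 values kept their sign. The ranges of the differences that changed sign were, in CoCM against Ctrl, Amn between −0.13 and 0.25, Cubn between −0.31 and 0.064, Lrp2 between −0.11 and 0.44 and Lrpap1 between −0.060 and 0.22. They were, in i.p. ABCB5+ against Ctrl, Amn between −0.10 and 0.28, Clcn5 between −0.47 and 0.12, Cubn between −0.24 and 0.14, Lrp2 between −0.056 and 0.43, Lrpap1 between −0.028 and 0.20 and Ocrl between −0.099 and 9.67e-04. They were, in i.v. ABCB5+ against Ctrl, Clcn5 between −0.13 and 0.40, Dab2 between −0.076 and 0.12 and Fcgrt between −0.11 and 0.013. They were, in i.p. against i.v. ABCB5+, Fcgrt between −0.073 and 0.010 and Ocrl between −0.044 and 0.075. CoCM animal 39 set the lower ends of Amn, Lrp2 and Lrpap1 in CoCM, i.p. animal 38 that of Amn in i.p. ABCB5+, and Ctrl animal 24 the upper ends of Cubn, Lrp2 and Lrpap1 in both. The cause was not tested. The difference of Dab2 in CoCM was between −0.46 and −0.37 under the 9 settings (adjusted p = 0.106 to 0.470). The count of all genes called in CoCM against Ctrl was 1 by edgeR, 78 by DESeq2, 183 by limma voom with quality weights, 5 with the marker covariate, and 0 without the 4 animals, in the fit of those 2 groups and with limma on TPM, and DESeq2 called 10 genes over the 4 groups, where edgeR called 0, and 1 gene each for i.v. ABCB5+ against Ctrl and between the routes.

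No paired analysis was possible because the groups compared share no replicate numbers. The fit of only the groups compared does not apply to the 4-group test, which already holds all animals. Depth limited Clcn5, with 19 counts in the weakest library, more than the other 7 genes, which had at least 143 counts in each animal. With 6 animals per group and the spread given above, differences of the size seen for Lrp2, Amn, Lrpap1 and Clcn5 lay within about 2 SEs. All intervals and limits cover counting error and the spread between these animals, and the levels refer to RNA in whole kidney, not to protein or uptake.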
